A study of Drosophila melanogaster with 33 samples.

Results

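The gene unc-13 (CG2999) had 24 listed RNA editing sites in heads of Drosophila melanogaster, of 1350 sites in 395 gene entries, or 1.78% of the total. The sites were taken as all entries of the deposited table with the symbol unc-13 and the identifier CG2999. All of them lie on chromosome 4 between positions 895009 and 921814 (dm3), a stretch of 26806 nt, and the table places 6 in exons and 18 in introns. They are numbered 1 to 24 here in order of position. Whether the deposited positions count from 0 or from 1 is not stated, and the table gives no strand, transcript or codon for a site.

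The protein Unc-13 primes synaptic vesicles, that is, it prepares vesicles docked at the active zone of a nerve terminal so that they can fuse when calcium enters. It acts with the SNARE proteins syntaxin and SNAP-25, and flies without the gene release almost no transmitter when the nerve fires. RNA editing by ADAR turns adenosine into inosine in double-stranded RNA, inosine is read as guanosine, and many transcripts of neuronal signalling genes are edited in flies. Exonic sites can change a codon, whereas intronic sites are removed with the intron when the transcript is spliced.

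The series holds 33 libraries of fly heads at an age of 3 to 4 days, after 3 to 4 days in cycles of 12 h light and 12 h dark. Nascent RNA, which is RNA still bound to chromatin, came from males of the ADAR0, FM7a and yw (yellow white) strains in 2 libraries each, made from 40 to 45 heads. ADAR0 males lack the editing enzyme, and FM7a is a balancer of the X chromosome. The labels give no allele beyond these strain names. Polyadenylated mRNA came from yw flies in 2 libraries, at hours 2 and 14 of the light:dark cycle. From Canton S flies it came in 12 libraries, at hours 0, 4, 8, 12, 16 and 20. The main nascent RNA data came from yw flies at 6 times of the light:dark cycle in 2 replicate sets of 6 libraries, and only set 1 is described as depleted of ribosomal RNA. Genomic DNA of yw flies gave 1 library.

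For each pool of libraries the authors deposited 1 editing level per site, the proportion of reads that show the edited base, given here in percent. The number of RNA reads behind a level is unknown, and a 0 therefore says no more than that the table lists the site at 0. No comparison below carries a test, because each strain or RNA class has 1 pooled level, and even 2 pools against 2 sets could not give an exact two-sided p under 0.333. The spread between the replicate sets is the sole replicate error, and it also holds any effect of the depletion described for set 1 alone. At the unc-13 sites the pairs of sets gave each level an SD of 4.45 points (n = 24 sites, 2 sets each), beside 4.61 points over all sites. Set 1 was the higher at 16 unc-13 sites (66.7%) and set 2 at 7 (29.2%), beside 57.1% and 34.0% of all sites. In RNA of whole heads, fewer cells that edit a site and less editing in each cell cannot be told apart. The table holds no expression values, so the tissue could not be checked against marker genes.

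The 24 unc-13 sites were mostly of low to moderate level. In the pool of all 12 nascent libraries they ranged from 4% to 50%, with a median of 17% beside 21% over all sites, and site 5 alone reached 50%. Intronic sites made up 75% of the unc-13 sites, against 54.0% of all sites. The 21% therefore mixes regions in other shares, and over all sites the median was 18% in introns and 27% in exons. Genomic DNA of yw flies covered the unc-13 sites with 35 to 79 reads and a median of 65.5, beside a median of 44 over all sites. Across the 24 sites the replicate sets gave similar orders of level, at a Pearson's r of 0.898 (Spearman's rho 0.876), beside 0.951 (rho 0.917) over all sites. These sites share transcripts and libraries, so the correlation describes them and is no test.

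**Figure D1:**
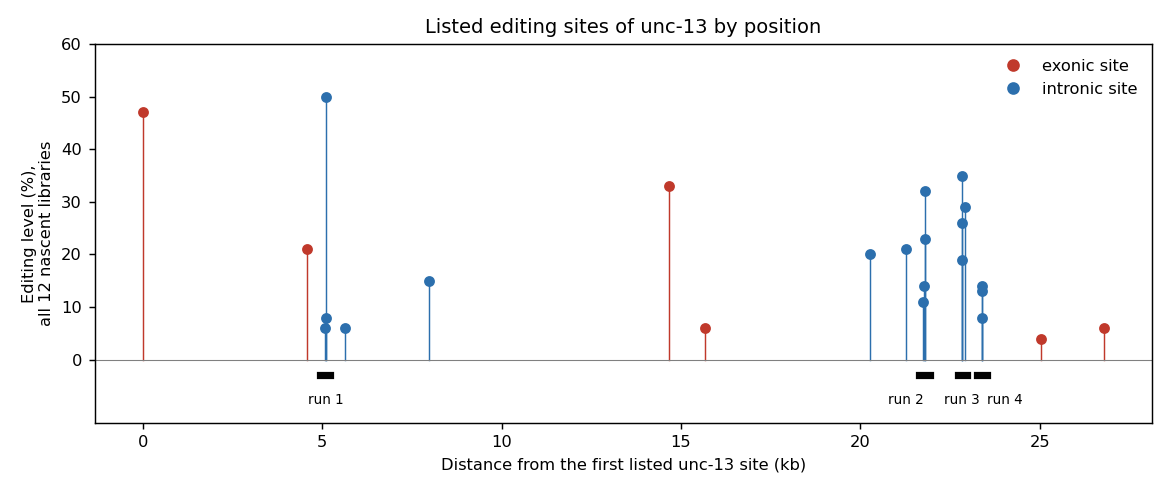
Nascent editing level in percent, pooled over all 12 light:dark libraries, at each unc-13 site against its distance in kb from the first listed site. Red stems are the 6 exonic sites, blue stems the 18 intronic sites, and black bars mark 4 runs of sites at most 50 nt apart; all 4 runs are intronic, and 13 of the intronic sites lie at the right of the map, more than 20 kb from the first site.

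By position the sites alternated between exons and introns in 5 blocks. The first block held exonic sites 1 and 2 at 47% and 21%. It was followed by 5 intronic sites between positions 900074 and 902996, with a median of 8%, and by exonic sites 8 and 9 at 33% and 6%. The largest block held 13 intronic sites within 3134 nt, between positions 915273 and 918407, with levels from 8% to 35% and a median of 20%. Exonic sites 23 and 24 closed the list at 4% and 6%. The highest exonic levels thus lay in the blocks at lower positions, and both sites of the last block were within the spread between replicate sets of each other.

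Many unc-13 sites lay close to a neighbour. Of the 23 gaps between neighbouring sites, 9 were 50 nt or less, or 39.1%, against 37.6% of such gaps over all gene entries, so this share lay near that of the whole table. The gaps ranged from 1 to 6696 nt with a median of 478 nt. Grouping sites with gaps of at most 50 nt gave 4 runs with 13 sites, all in introns, and left 11 sites apart, among them every exonic site. The nascent median was 14% for the sites in runs and 20% for the 5 intronic sites outside them.

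Closeness in sequence did not go with equal level in run 1. It spans 49 nt and holds sites 3, 4 and 5 at positions 900074, 900121 and 900122. Site 5 was at 51% and 49% in the replicate sets, whereas site 4, the base next to it, was at 8% in both. Site 3 was at 8% and 4%. The difference of 42 points between sites 4 and 5 was far above the SD of 4.45 points, and both had similar genomic coverage, with 69 and 67 reads. Over the 78 pairs of neighbouring bases in the table the median difference was 19 points, and 13 pairs differed by 42 points or more. The same order held in males, where sites 4 and 5 were at 3% and 45% in FM7a males and at 3% and 43% in yw males.

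The other runs had narrower ranges of level. Run 2 holds 4 sites in 64 nt (positions 916755 to 916818), with nascent levels of 11%, 14%, 23% and 32% in order of position. Run 3 holds 3 sites within 5 nt (positions 917849, 917851 and 917853), at 26%, 19% and 35%. Within run 3 the sets gave 22% and 28% for site 16, 20% and 18% for site 17, and 28% and 39% for site 18, so sites 16 and 18 met at 28% and site 17 lay below both. Run 4 holds 3 sites in 15 nt (positions 918393, 918394 and 918407), at 13%, 14% and 8%. Its neighbouring bases, sites 20 and 21, differed by 1 point in the pool, and site 21 had the largest distance between sets of all unc-13 sites, with 23% in set 1 and 9% in set 2.

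Among intronic sites, the highest nascent levels after site 5 were at site 18, with 35%, and site 15 (position 916818), with 32%. Site 15 was at 40% and 27% in the replicate sets. The lowest intronic levels were 6% at site 3, 6% at site 6 (position 900656) and 8% at both site 4 and site 22. Site 6 was at 7% and 5% in the sets. The rest of the intronic sites lay between these values, and outside the runs they included site 7 (position 902996) at 15% and site 19 (position 917935) at 29%.

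The 6 exonic sites split by whether the table gives an mRNA level. Sites 1, 2 and 8 have one and were at 47%, 21% and 33% in nascent RNA. Sites 9 (position 910693), 23 (position 920049) and 24 (position 921814) have none and were at 6%, 4% and 6%. None of the intronic sites has an mRNA level. The exonic median was 13.5% and the intronic median 17%, a difference of -3.5 points that was 2 points in FM7a males. The means were 19.5% and 19.4%. Over all sites the order was the opposite, with medians of 27% in exons and 18% in introns. The unc-13 intronic median thus lay near that of all intronic sites, and the exonic median, over 6 sites, lay below that of all exonic sites.

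**Figure D2:**
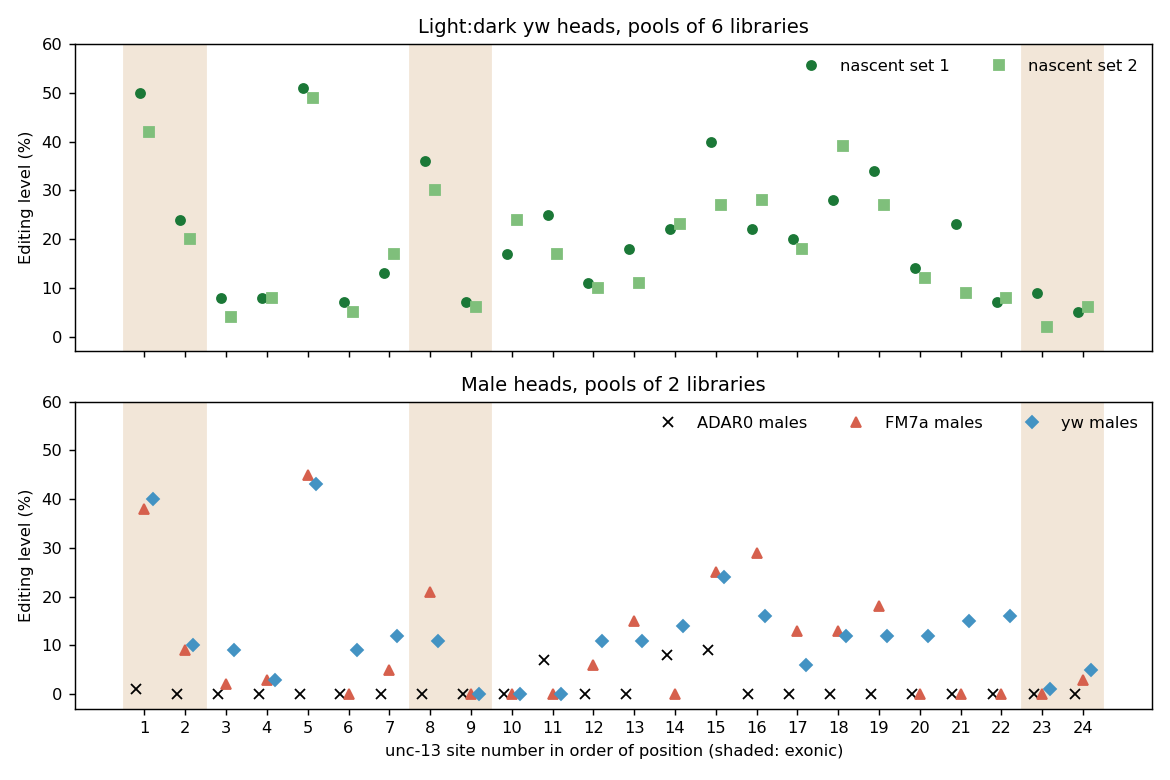
Editing level in percent at the 24 unc-13 sites in order of position, with exonic sites shaded. The upper panel gives the replicate sets of light:dark yw nascent RNA, where sites 1 and 5 stand highest in both sets, and the lower panel gives the male pools, where ADAR0 is at 0 for 20 sites and reaches 7% to 9% at sites 11, 14 and 15.

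Levels in mRNA and nascent RNA could be compared only at the 3 exonic sites with both, and they showed different patterns. Of all 621 exonic sites, only 257 have an mRNA level. None of these levels is 0, and the lowest is 12% in yw and 3% in Canton S flies. Whether an mRNA level was given only where it was high enough is not stated. Such a choice would favour mRNA above nascent RNA, both at the unc-13 sites and in the shares of all sites with an mRNA level. In mRNA, site 8 (position 909692) was at 75% in yw and 43% in Canton S flies, against 36% and 30% in the nascent sets. Both mRNA pools thus lay above both sets there, a placement found at 1 of the 3 unc-13 sites and at 39.3% of the 257 sites with an mRNA level. The mean of the mRNA pools exceeded the nascent pool by 26 points, but the pools themselves were 32 points apart. The nascent sets came from yw flies only, so with Canton S mRNA the RNA class and the strain cannot be told apart. Within yw, mRNA was at 75% against 33% in the nascent pool, from 2 hours of the cycle against 6. The nascent level of this site also varied with the source, since FM7a males were at 21% and yw males at 11%.

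At site 2 (position 899596) mRNA was at 23% in yw and 22% in Canton S, against 24% and 20% in the nascent sets. The mRNA pools fell inside the range of the sets, as at 6.23% of all sites with an mRNA level. Males gave lower values at this site, with 9% in FM7a and 10% in yw. At site 1 (position 895009) mRNA was at 35% in yw and 53% in Canton S, against 50% and 42% in the nascent sets. The mRNA strains therefore lay on opposite sides of both sets at site 1, as at 16.3% of all sites with an mRNA level, and the Canton S pool was nearer to set 1 than the yw pool was to set 2.

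**Figure D3:**
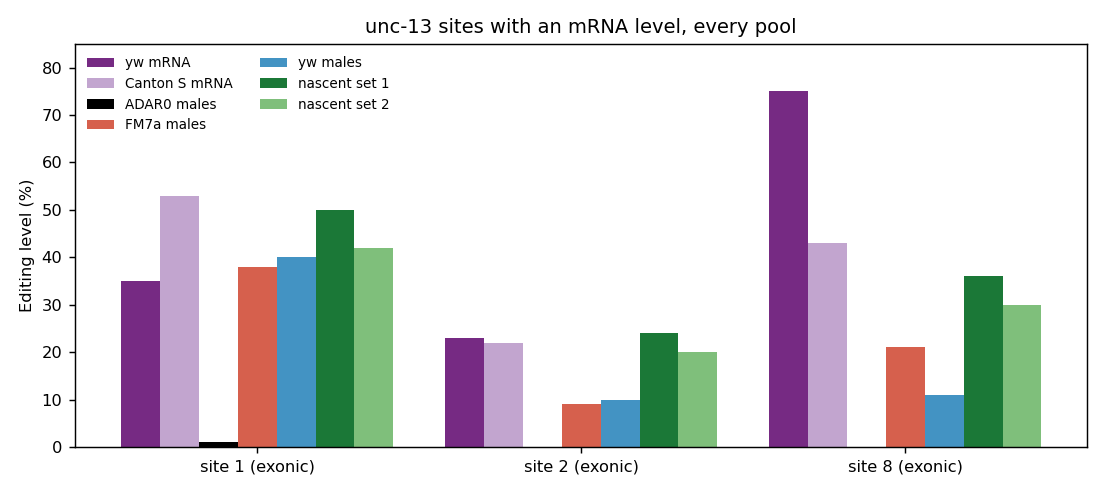
Editing level in percent in every pool at the 3 exonic unc-13 sites with an mRNA level. Bars start at 0 and each is 1 pool without an error of its own; yw mRNA stands highest at site 8 with 75%, whereas at site 1 it lies below both nascent sets.

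Levels at the unc-13 sites without the enzyme were read from ADAR0 males. Such a level is a share of reads with the edited base and is not shown to be editing, since genomic DNA came from yw flies only. ADAR0 was listed at 0 at 20 of the 24 sites, or 83.3%, against 88.0% of the 1331 sites with all 3 male levels. It was below both FM7a and yw males at 15 unc-13 sites, or 62.5%, against 73.9% of those sites. The count is bounded by the FM7a pool, which was itself at 0 at 9 sites. The median difference was -4 points from FM7a and -11 points from yw males, beside -11 and -15 points over all sites. From FM7a it was -13 points without the sites at 0 in FM7a or yw males, -15 points at the 7 sites seen in all 4 control male libraries, and -9.17 points as a mean. Both subsets were chosen by the control males themselves, and that choice favours a larger difference. Sites 1 and 5, the most highly edited, were at 1% and 0% in ADAR0, against 38% and 45% in FM7a and 40% and 43% in yw males.

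Levels of 5% or more in ADAR0 occurred at 3 unc-13 sites, against 4.06% of all sites, and these lay within 545 nt of each other in the large intronic block. Site 15 was at 9% in ADAR0, against 25% in FM7a and 24% in yw males. Site 14 (position 916805), 13 nt away, was at 8% in ADAR0, against 0% in FM7a and 14% in yw males. Site 11 (position 916274) was at 7% in ADAR0 and at 0% in both FM7a and yw males, although the nascent sets had 25% and 17%. Site 11 was the only unc-13 site with ADAR0 above both control strains, as at 1.28% of all sites. Sites 12 and 13, in the same run as sites 14 and 15, were at 0 in ADAR0. The male pools hold 2 libraries each and no depth is given, so how many reads these levels rest on is unknown.

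FM7a and yw males both carry ADAR, and FM7a more often had a 0 listed at the unc-13 sites, a difference that was not tested. FM7a was below yw at 12 of 24 sites, against 58.2% of all sites, while it was above yw at 8 and level with it at 4. The differences had a median of -0.5 points, beside -2 points over all sites, and of 1 point at the 15 unc-13 sites above 0 in both strains. The unc-13 sites left out of the last value were all at 0 in FM7a, so that choice itself favours a higher difference. FM7a was listed at 0 at 9 unc-13 sites, or 37.5%, against 18.7% of all sites, and yw males at 3, or 12.5%, against 11.3%. By region, FM7a was at 0 at 38.9% of the unc-13 intronic sites, against 24.3% of all intronic sites with an FM7a level. In exons it was at 0 at 2 of 6 unc-13 sites, or 33.3%, against 12.5%. At 6 unc-13 sites, or 25%, FM7a was at 0 while yw males were above 0, against 12.9% of all sites. All 3 sites of run 4 were among these, with 0% each in FM7a against 12%, 15% and 16% in yw males. Of the 72 runs of 3 or more sites in the table with both levels, 3 had this pattern. In the opposite direction, FM7a exceeded yw males at site 16, with 29% against 16%, and at site 8.

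Sites 9, 10 (position 915273) and 11 were listed at 0 in both control strains, which is 12.5% of the unc-13 sites against 5.79% of all sites. Their nascent sets in light:dark flies were at 7% and 6%, 17% and 24%, and 25% and 17%. Sites 10 and 11 were thus at moderate level in 1 source of yw nascent RNA and listed at 0 in another. Of the unc-13 sites, 7, or 29.2%, were seen in all 4 control male libraries, against 45.1% of all sites. These were sites 1, 2, 5, 7, 13, 19 and 24. Their nascent median was 21%, and that of the other unc-13 sites 14%.

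Nascent RNA of males gave lower levels than that of the light:dark flies at most sites. The yw males, of the same strain as the light:dark flies, were below both nascent sets at 16 unc-13 sites, or 66.7%, against 62.6% of all sites, and above both at 3, or 12.5%, against 20.7%. The median difference was -6.5 points at the unc-13 sites and -5 points over all sites. FM7a males were below both sets at 22 unc-13 sites, or 91.7%, against 75.6% of all sites, and above both at 1, or 4.17%, against 11.3%. That site was site 16. The largest shortfalls of yw males were 23 points at site 18, 22 points at site 8, 21 points at site 11 and 20 points at site 10. In contrast, site 22 (position 918407) was at 16% in yw males, against 7% and 8% in the sets, and sites 3 and 6 were at 9% in yw males, above both of their sets. The male libraries were made from few heads, and the labels do not give the sex of the light:dark flies. Over all sites the light:dark pool had none at 0 and a lowest level of 4%, whereas yw males had 163 sites at 0 and FM7a males 253. Whether sites were listed by their light:dark level is not stated. The part of each of these in the differences was not tested.

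The deposited 5th percentile gives the lower end of a level over the 12 light:dark libraries. Read depth is unknown, and a library with few reads can give a low value even at a site of steady level. The 5th percentile had a median of 4.5% at the unc-13 sites, beside 8% over all sites. In introns it was 4.5% beside 6%, and in exons 10% beside 13%. It was listed at 0 at 2 unc-13 sites, or 8.33%, against 7.70% of all sites. Site 5 had a 5th percentile of 41% at a level of 50%, and site 1 had 37% at 47%. Sites of like level could differ in this measure, since site 2, at 21%, had 16%, whereas site 11, also at 21%, had 4%, and site 10, at 20%, had 0%. Sites 10 and 11 were also at 0 in both control male strains. Site 23 was the other site with a 5th percentile of 0, at a level of 4%.

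**Figure D4:**
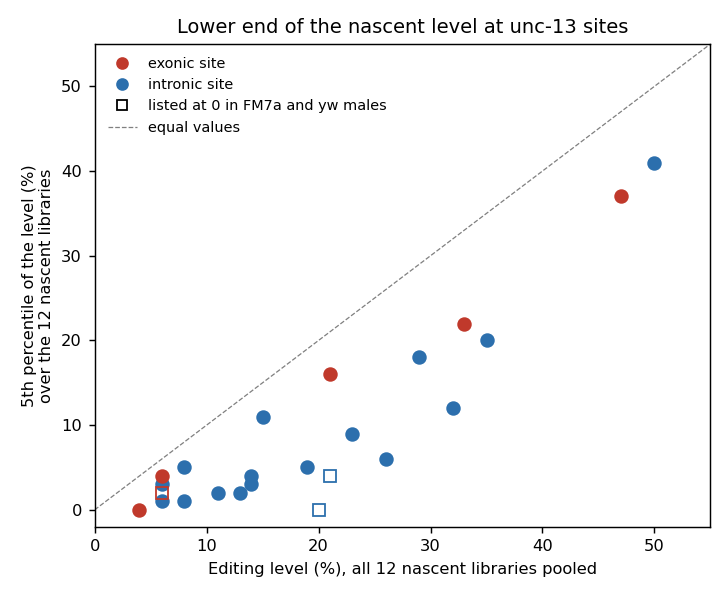
The 5th percentile of the editing level over the 12 light:dark nascent libraries against the pooled level, both in percent, for the 24 unc-13 sites. Points on the dashed line would have equal values; sites 1 and 5 lie at the upper right with 37% and 41%, and the open squares, at 0 in FM7a and yw males, include sites 10 and 11 at 0% and 4%.

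Set beside other genes, unc-13 had many sites and no very high one. Of the 32 gene entries with at least 10 sites, 6 had more sites than unc-13 and 24 had a higher top site. Its median lay below that of 19 entries, equalled that of 1 and exceeded that of 11. By the mean absolute difference of median levels over 5 nascent pools (both sets and the 3 male strains), the entry most like unc-13 was the potassium channel gene Sh, at 1 point over 58 sites. The next were nrm, which encodes a cell adhesion protein, at 1.1 points over 20 sites, and CG40178 at 2.2 points over 13 sites. The unc-13 sites had medians of 19% and 17% in the sets, 0% in ADAR0, 4% in FM7a and 11% in yw males, against 15.5%, 16%, 0%, 4% and 10.5% for Sh. Snap25 and shot were as near as CG40178. The entries differed in other ways, since nrm and CG40178 had no exonic site and single Sh sites reached 80%.

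**Figure D5:**
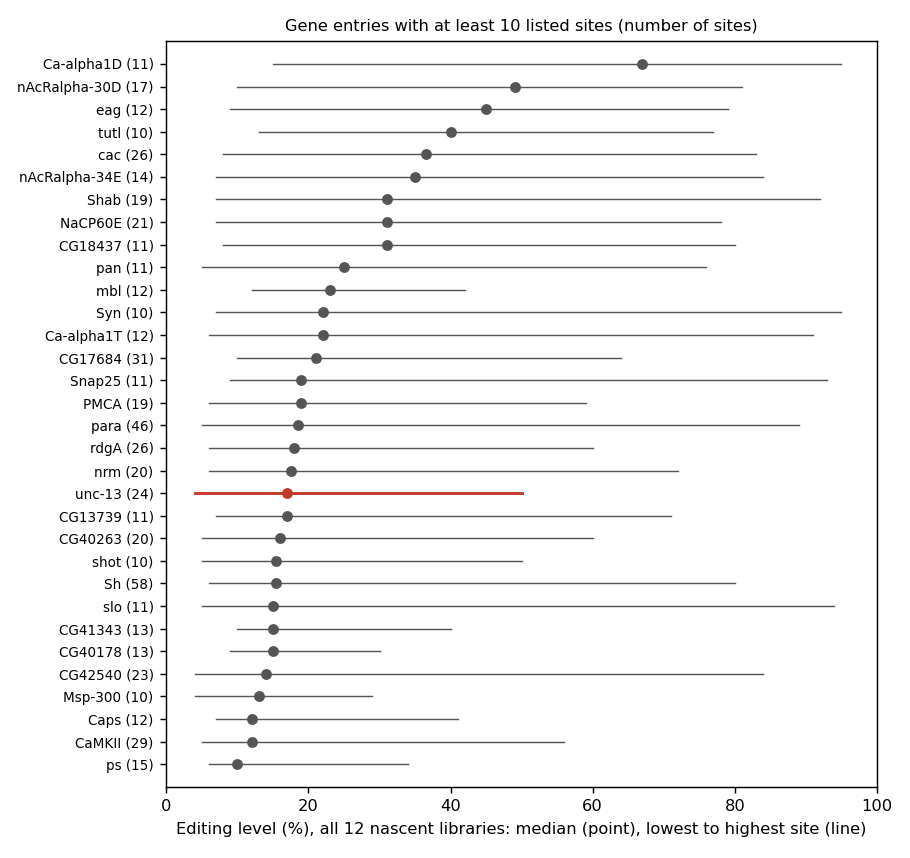
Median editing level in percent (points) and range from the lowest to the highest site (lines) in nascent RNA of all 12 libraries, for the 32 gene entries with at least 10 listed sites, whose number of sites stands in brackets. The entry unc-13, in red, has a median of 17% and ends at 50%, and 24 entries reach further right.

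Among genes of vesicle release, a list of 39 names chosen with earlier results of these data known, 17 entries had listed sites, with 132 sites in all. The entry with more sites than unc-13 was cac, the presynaptic calcium channel, with 26 sites, 12 of them exonic, and a median of 36.5%. Caps, which encodes a priming factor of dense-core vesicles, had 12 sites with a median of 12%, and Snap25, the SNARE gene, had 11 intronic sites with a median of 19%. Of the other 16 entries, 12 had a higher nascent median than unc-13 and 4 a lower one, with medians from 9.5% to 80%. The related genes unc-13-4A and stac (formerly unc-13-4B) had 0 listed sites. On chromosome 4, which held 124 sites in 15 gene entries, unc-13 accounted for 19.4% of the sites, and the other 100 sites had a nascent median of 19.5%.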

How the data were processed

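Levels of RNA editing in fly heads were taken from a single deposited table. The authors deposited each level as a fraction of reads with the edited base, rounded to hundredths and pooled over libraries per the file headers; fractions were multiplied by 100. The deposited 5th percentile, also a fraction, is taken over the 12 light:dark nascent libraries. Genomic DNA coverage is a read count as deposited. Per the submitters' processing notes, the build was dm3 and the tools were TopHat and CASAVA, version 1.6 or, for male libraries, 1.8. The method of finding sites was not given in the sources used here. Both mRNA pools were averaged with equal weight. RefSeq's Release 6 gene table was used for names and neighbours only. It places the antisense genes asRNA:CR43425 and asRNA:CR44029 and the pseudogene CR43361 within unc-13, and whether reads were assigned by strand is not stated.

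Runs of sites, placements against the sets and likeness were computed with Python 3.11.15 and scipy 1.17.1, by code tested on simulated data. No test was planned or run, and values are compared only with the spread between replicate sets. Members and lists were chosen with earlier results of these data known. All exonic sites, the 3 highest and 3 lowest intronic sites, the ends of runs, sites at 5% or more in ADAR0, the 3 entries most like unc-13 and the 3 release genes with the most sites were to be named; other sites were named after their values were seen.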

Additional observations from a re-analysis of the deposited data

Results flagged for a closer look

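At exonic site 1 (position 895009) yw mRNA lay below both nascent sets and Canton S mRNA above both. The yw mRNA level minus the Canton S mRNA level was -18 points, from 35% in yw and 53% in Canton S flies, against 50% and 42% in the nascent sets. At exonic site 8 the same difference was 32 points in the opposite direction, with 75% in yw and 43% in Canton S flies, and both strains lay above both sets. Neither difference was tested, because each strain has 1 pool, of 2 libraries in yw and 12 in Canton S. The mRNA of the strains was collected at different hours, so strain and time cannot be told apart.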

How the results depend on the processing

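No paired analysis was possible because the deposited levels pool the replicates of each group. For the same reason male replicates could not be left out. Values were compared by the SD of 4.45 points and counts by a factor of 1.5. The SD comes from the light:dark sets of 6 libraries and does not measure the error of male pools of 2 libraries or of mRNA pools. This SD is that of a level at 1 site, not of a median, and several of the medians are smaller than it, so staying within it says little about stability. Of 36 alternative values, 25 stayed within these limits without turning sign, 1 of them at 0, 7 moved further and 4 changed sign. Over only 3 sites, possibly chosen by their mRNA level, the median mRNA excess over nascent RNA was 1.5 points. It was 2 points with yw mRNA alone, 6 points with Canton S mRNA alone and 12.5 points against yw males. With a replicate set left out it lay between -1.5 (without set 2) and 2.5 points (without set 1), and the number of sites with mRNA above nascent RNA, 2, lay between 1 and 3. The exonic minus intronic difference of -3.5 points was 2 points in FM7a males, 0.056 points between means, and -11 points with the 3 low exonic sites that lack an mRNA level as the exonic group. The FM7a minus yw difference of -0.5 points was 1 point without the sites at 0 in either strain, which leaves 15. None of the sites left out had FM7a above yw, so leaving them out favours a higher difference. The ADAR0 minus FM7a difference of -4 points was -13 points without those sites, -15 points at the 7 sites seen in all control male libraries and -9.17 points as a mean. Both subsets were chosen by the control males, which favours a larger difference from ADAR0. The causes were not tested. The entries most like unc-13 were still Sh and nrm with 5 sites as the minimum, and the next was fru. A minimum of 15 sites only removes entries, and the ADAR0 median was 0 in all 32 entries. Those alternatives therefore could not have displaced Sh and nrm, although both are among the 25 that stayed. With 15 sites the next was CG40263. Grouping with gaps of 20, 100 or 200 nt gave 5, 4 and 4 runs, against 4. Their members changed, since at 100 and 200 nt site 19, which lies 82 nt from site 18, joined run 3. At 20 nt site 3 left run 1, and run 2 split between sites 13 and 14. The unknown RNA depth limits every level.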

Other observations

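The distance between neighbouring sites was 1001 nt in 2 places of unc-13, between exonic sites 8 and 9 and between intronic sites 10 and 11. In FM7a and yw males sites 9, 10 and 11 were listed at 0, while site 8 was at 21% in FM7a males and 11% in yw males.

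Across the 24 unc-13 sites, levels in FM7a males correlated with those of the light:dark nascent pool at a Pearson's r of 0.858 (Spearman's rho 0.691), and those of yw males at 0.756 (rho 0.584). Over all sites r was 0.762 (rho 0.678) for FM7a males and 0.794 (rho 0.695) for yw males. The sites of a gene share transcripts and libraries, and sites 1 and 5 lie above the rest in the nascent pool, so these values are a description.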
